A study of Homo sapiens with 5 samples.

Results

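The genes described here are noncoding RNA genes that are named after a neighbouring gene: antisense RNAs (symbols ending in -AS), divergent transcripts (-DT) and intronic transcripts (-IT). They were taken from the RefSeq table of an RNA sequencing study of HEK 293T cells, a line derived from human embryonic kidney and transformed with viral genes, among them large T antigen of SV40. An entry was included where its identifier was that of a noncoding RNA and its symbol had one of these endings, other than antisense RNAs of the HOX clusters and EPB41L4A-AS1. The rule took 561 of 20221 entries. In 1 of them, HAS2-AS1, the deposited numbers were damaged, which left 560 of 20220 entries, 408 antisense, 150 divergent and 2 intronic.

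Control cells were grown without drug (2 libraries). Treated cells received 1.0 µM 5-aza-2'-deoxycytidine (5-aza-CdR), a nucleoside that replicating cells incorporate and that captures DNA methyltransferases on the DNA, for 3 days (2 libraries). Recovery cells were treated in the same way and then kept for 30 days without the drug (1 library). All 5 libraries came from the same cell line, labelled non-malignant, after removal of ribosomal RNA. Each group has 1 deposited FPKM value per gene (fragments scaled to transcript length and to the fragments mapped), so the spread between libraries cannot be seen in these values and they carry no SD or n of their own. The only test per gene is the q-value, a p-value adjusted for the number of genes tested, in the authors' deposited table. In bulk RNA, fewer cells that express a gene and less RNA per cell cannot be told apart.

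RNA polymerase II often starts in both directions at a promoter. The RNA made away from the gene is usually short-lived and is removed by the nuclear exosome, but some of these divergent transcripts are long and spliced enough to be annotated as genes. Antisense RNAs are made from the strand opposite to a gene and may start near its promoter, inside it or beyond its end. Promoters of such pairs are often rich in CG dinucleotides, the sites where DNA methyltransferases act.

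The sequences shown are the promoter sides of 5 divergent genes that the authors called changed, because in 4 of them (all but EPCAM-DT) the stretch includes the bases between the start of the called RNA and that of a close neighbour that was not called, and the one of EPCAM-DT differs from the others in its CG content. Each stretch, which also takes in the first bases of the RNA itself, is the part of the window from 250 bases before to 50 bases after the start of the RNA that lies in no other gene of the RefSeq gene table. Sequences are from RefSeq (build GRCh38.p14), run 5′ to 3′ on the strand of the RNA, and have CG dinucleotides in capitals.
FAM111A-DT: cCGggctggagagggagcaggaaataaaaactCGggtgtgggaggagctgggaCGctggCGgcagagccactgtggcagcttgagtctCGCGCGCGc
ZNF582-DT: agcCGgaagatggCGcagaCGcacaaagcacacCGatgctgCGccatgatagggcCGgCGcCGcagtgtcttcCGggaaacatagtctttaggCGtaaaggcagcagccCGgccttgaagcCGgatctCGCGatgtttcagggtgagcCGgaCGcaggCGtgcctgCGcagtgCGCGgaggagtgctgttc
GTSE1-DT: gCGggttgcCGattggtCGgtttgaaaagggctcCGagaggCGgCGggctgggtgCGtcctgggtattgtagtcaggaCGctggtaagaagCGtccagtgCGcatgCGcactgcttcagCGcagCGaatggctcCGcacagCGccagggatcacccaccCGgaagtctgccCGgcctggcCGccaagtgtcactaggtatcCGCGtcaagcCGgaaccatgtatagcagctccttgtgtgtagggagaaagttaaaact
MRPS30-DT: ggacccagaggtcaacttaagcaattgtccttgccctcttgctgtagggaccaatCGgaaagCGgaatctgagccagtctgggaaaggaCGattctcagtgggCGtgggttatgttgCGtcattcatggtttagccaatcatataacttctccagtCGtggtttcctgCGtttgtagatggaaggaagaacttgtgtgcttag
EPCAM-DT: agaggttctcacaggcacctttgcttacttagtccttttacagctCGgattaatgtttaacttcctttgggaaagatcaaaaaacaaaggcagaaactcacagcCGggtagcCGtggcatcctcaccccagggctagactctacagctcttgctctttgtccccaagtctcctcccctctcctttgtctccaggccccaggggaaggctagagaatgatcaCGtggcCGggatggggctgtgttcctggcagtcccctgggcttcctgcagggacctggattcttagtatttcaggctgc

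The stretches lie at chr11:59142759-59142855, minus strand, for FAM111A-DT; chr19:56393535-56393725, plus strand, for ZNF582-DT; and chr22:46296611-46296869, minus strand, for GTSE1-DT. That of MRPS30-DT is at chr5:44808744-44808946, minus strand, and that of EPCAM-DT at chr2:47345025-47345324, minus strand. In the full 300 base windows, ZNF582-DT had 35 CG dinucleotides, GTSE1-DT 30, FAM111A-DT 25, MRPS30-DT 20 and EPCAM-DT 5. EPCAM-DT thus stood far below the others, and its entry lay 24073 bases from that of EPCAM, while the other 4 entries lay 36 to 155 bases from their partners.

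Promoter windows were found for 427 of the 560 genes in the RefSeq promoter table. The 120 divergent windows had a median of 32 CG dinucleotides (quartiles 25 and 38), the 307 antisense windows 16 (quartiles 4 and 29) and the full set of 27305 windows had 14 (quartiles 3 and 28). The ratio of observed to expected CG was at least 0.6 in 90.0% of divergent, 50.8% of antisense and 49.0% of all windows. GGGCGG, the core of the binding motif of SP1, was searched on both strands and was present in 80.0% of divergent, 42.0% of antisense and 44.6% of all windows. TATAAA, the TATA box core, also searched on both strands, was present in 6.67%, 8.14% and 11.95%. A window could hold both motifs, as that of JUN-DT did. These matches describe the letters of the windows only.

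**Figure D1:**
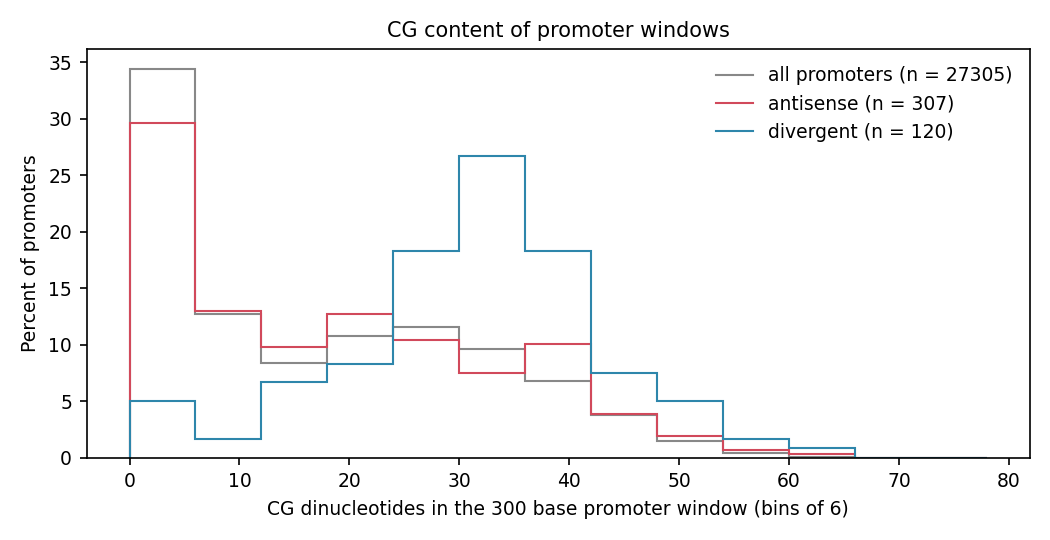
CG dinucleotides in the 300 base promoter window (horizontal axis, bins of 6) against the percent of promoters (vertical axis) for divergent genes, antisense genes and all promoters of the RefSeq table. Divergent promoters centre on a median of 32, antisense promoters on 16 and all promoters on 14.

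Orientation could be read for 114 divergent and 268 antisense genes that had a promoter window for themselves and for the named partner. All of them were on the strand opposite to the partner. Of the divergent genes, 98 (86.0%) started within 1000 bases upstream of the partner's start, so that both RNAs lead away from each other. Of the antisense genes, 48 (17.9%) had this divergent layout as well, 51 (19.0%) started within 1000 bases downstream of the partner's start and ran across it, and 169 started farther away. Antisense genes with the divergent layout included ZBED5-AS1, ZNF143-AS1, ZNF566-AS1 and MNX1-AS1.

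These positions bear on what an entry measures. The RefSeq table lists 1 entry per locus, and a gene that overlaps another often shares its entry. The named partner had an entry of its own on the same chromosome for 238 of the 560 genes, and for 1, KANSL1-AS1, on an alternative contig. For 295 of the 321 genes without a partner entry, the partner overlaps the gene in the RefSeq gene table, so fragments of both may stand behind the value. PCNA-AS1 and TMEM132D-AS1 are of this kind. The libraries were directional, but whether the authors' counting used the strand is not given in the sources used here. Of the 560 genes, 134 overlap no other gene in the RefSeq gene table; these are called free-standing below. Of the 12 genes with a call, 4 were free-standing: ZNF582-DT, ING2-DT, GTSE1-DT and MRPS30-DT.

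Facts of the whole series were as follows. Total fragments per library are not given, but in the authors' values the commonest ratio between groups was 0.757 for treated over control and 1.53 for recovery over control, taken as that of 1 fragment against 1. The fragments behind the values would then be 1.32 times those of control in treated and 0.652 times in recovery cells. The median log2 change over the 12712 entries with a mean of at least 0.5 FPKM was 0.01 for treated and 0.00 for recovery. Markers of the cell line were present only in part. VIM (181 to 316 FPKM over the groups), KRT18 (214 to 418), NEFL (22.2 to 30.6) and CDH2 (24.4 to 26.8) were the highest in control. LHX1 was low throughout, between 0.390 and 1.83 FPKM. SIX2 rose without a call from 0.853 FPKM in control to 9.83 under treatment and 5.23 after recovery. PAX2, NEFM and IRS4, 3 of the 9 measured, were listed at 0 in control. NEFM and IRS4 were called higher in treated and IRS4 in recovery cells (q = 0.0147 for each in the authors' deposited table). Of the 4 blood markers all were listed at 0 in control and in recovery, and their summed level in treated cells was 1.11 FPKM. The summed level of 4 fibroblast markers was 4.80 to 10.5 FPKM, that of 3 endothelial markers 0.02 to 1.04 FPKM and that of 2 epithelial markers 0.56 to 2.85 FPKM, with CDH1 listed at 0 in control and recovery. The part of other cell types in the results was not tested.

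Antisense and divergent RNAs were mostly low. Listed at 0 were 312 of 560 (55.7%) in control, 207 (37.0%) in treated and 267 (47.7%) in recovery cells. The matching shares were 77.2%, 66.9% and 73.2% for the 2798 other noncoding entries and 30.2%, 19.6% and 25.1% for the 16862 messenger RNA entries. In each of these 3 classes the share listed at 0 was lowest in treated cells, where the estimated number of fragments was highest. Recovery cells also had a lower share than control in each class, with an estimated 0.652 times the control fragments. The part of the number of fragments in these shares was not tested. A value of 0 may be a failed estimate, so it is described only as listed at 0. At 10 FPKM or more stood 25 genes in control, 15 in treated and 23 in recovery cells. Divergent genes were listed at 0 in 48.0%, 32.0% and 36.7%, and antisense genes in 58.3%, 38.7% and 51.5%, in the same order of groups. Of the 2 intronic genes, MLIP-IT1 was at 0 in all groups, and HS1BP3-IT1 was at 2.81 FPKM in treated cells and listed at 0 in the others.

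**Figure D2:**
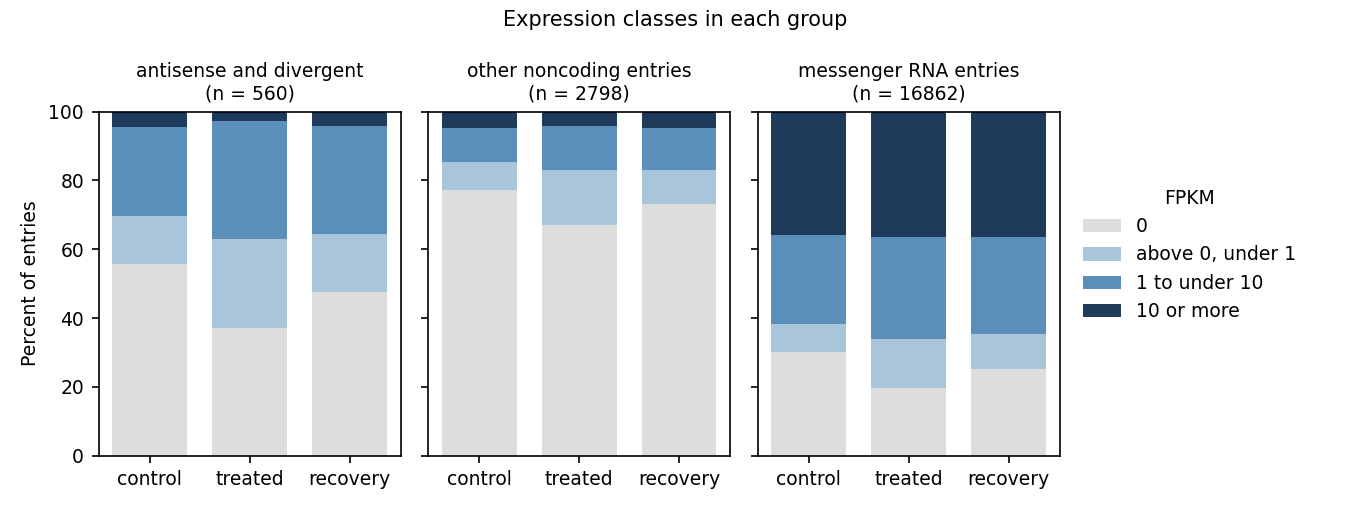
Percent of entries (vertical axis) listed at 0, above 0 and under 1, from 1 to under 10, and at 10 FPKM or more in each group (horizontal axis), for the antisense, divergent and intronic genes, for other noncoding entries and for messenger RNA entries. The share listed at 0 among the 560 genes was 55.7% in control, 37.0% in treated and 47.7% in recovery cells.

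Genes listed at 0 in all groups numbered 158, and 284 had a mean of at least 0.5 FPKM over the groups. The promoters of the 2 sets differed in their letters. In the 226 windows of the genes with a mean of at least 0.5 FPKM the median was 28 CG dinucleotides, and in the 121 windows of the genes at 0 throughout it was 8. This held for antisense genes, with 24 and 6. Divergent genes had 31 in both sets.

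The 12 entries with the highest mean FPKM are shown next, although the numbers of fragments behind their values are not known. PCNA-AS1 was listed at 590 FPKM in control, 256 in treated and 422 in recovery cells. Its entry (chromosome 20, 5095599 to 5107268, hg19) covers PCNA, the sliding clamp of DNA replication, which has no entry of its own, so the value cannot be assigned to the antisense RNA. RAB30-DT, divergent from the gene of a Golgi GTPase, was at 83.1 FPKM in control, 41.3 in treated and 55.3 in recovery cells. RAB30 itself, 142 bases away, was at 2.30, 2.34 and 1.77 FPKM, so here the noncoding entry had the higher value of the pair in every group. RAB30-DT overlaps 1 further gene in the RefSeq gene table, and its value may hold fragments of that gene.

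OIP5-AS1, a conserved cytoplasmic RNA also known as Cyrano, had 29.2 FPKM in control, 22.7 in treated and 32.5 in recovery cells. Its partner OIP5, a centromere protein gene that overlaps it in the RefSeq gene table, went from 31.8 to 19.6 and 11.2 FPKM. NIPBL-DT was at 29.6, 15.9 and 27.7 FPKM, and NIPBL, the cohesin loader, at 21.5, 29.0 and 15.0 FPKM. The treated value was thus the lowest of 3 for the divergent RNA and the highest for the messenger RNA.

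Among the other entries of this set, URB1-AS1 was at 19.0, 2.24 and 13.6 FPKM and LAMTOR5-AS1 at 19.1, 4.22 and 14.5 FPKM, low in treated cells and near control after recovery. PITPNA-AS1 (18.1, 20.4 and 21.6 FPKM), TTC28-AS1 (21.4, 15.6 and 19.2) and SVIL-AS1 (12.9, 15.1 and 11.7) differed least between groups. MRPL20-AS1 (19.6, 12.6 and 10.5) and C10orf95-AS1 (16.6, 11.8 and 9.02) had their lowest value in recovery cells, while ZNF790-AS1 (7.16, 7.44 and 20.5) had its highest there. LAMTOR5-AS1, PITPNA-AS1, TTC28-AS1, MRPL20-AS1, C10orf95-AS1 and ZNF790-AS1 each overlap a partner that has no entry of its own. Fragments of both genes may stand behind their values, which cannot be assigned to the antisense RNA. None of the 12 was called in either comparison, and their lowest q in the authors' deposited table was 0.743, for NIPBL-DT in treated cells.

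**Figure D3:**
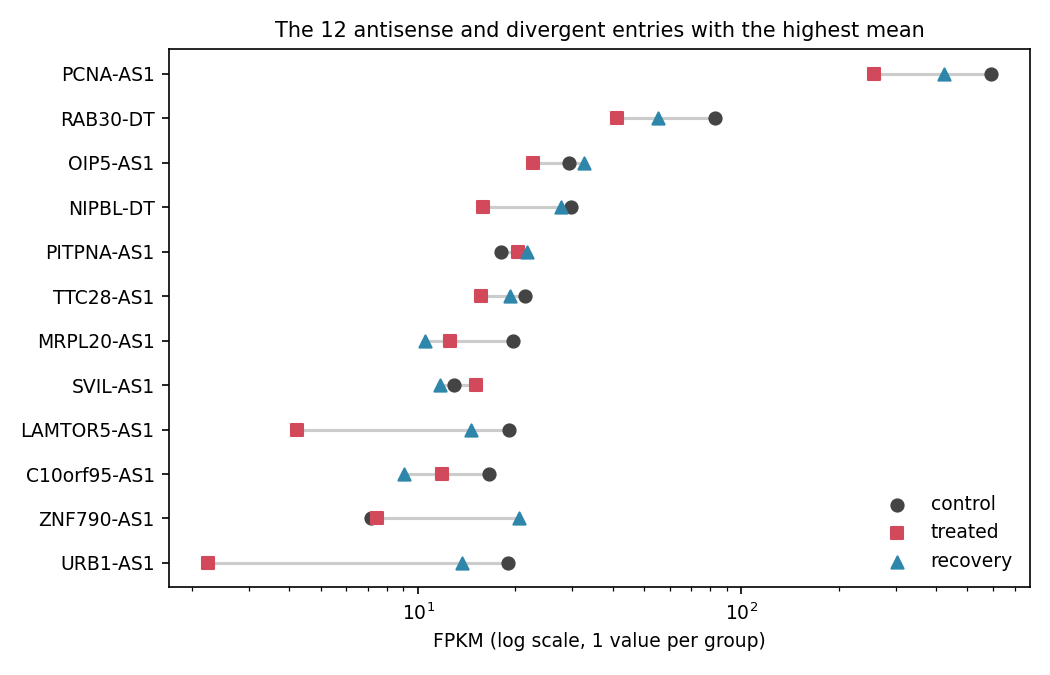
FPKM (horizontal axis, log scale) in control, treated and recovery cells, 1 point per group, for the 12 entries with the highest mean. PCNA-AS1, whose entry covers PCNA, lies at 256 to 590 FPKM, and URB1-AS1 and LAMTOR5-AS1 have treated values of 2.24 and 4.22 FPKM below their other values.

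Which of these genes changed while the drug was present was read from the authors' calls. In treated against control cells, 7 of 560 genes (1.25%) were called at q under 0.05, where 0.757% of all 20220 entries were called. Higher were 5, against 0.603% of all entries, and lower were 2, against 0.153%. Every one of the 7 was listed at 0 on one side of the comparison. The lowest q of a gene above 0 on both sides was 0.672, that of BOLA3-DT (1.49, 9.47 and 9.90 FPKM), the divergent RNA of a mitochondrial iron-sulfur cluster gene.

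Of the genes that rose, TMEM132D-AS1 had the highest treated value. Listed at 0 in control, it reached 20.3 FPKM in treated and 6.86 in recovery cells (q = 0.0147 and 0.529 in the authors' deposited table). Its entry (chromosome 12, 129556271 to 130388212, hg19) is 831942 bases long and covers TMEM132D, a membrane protein gene, so the RNA that rose is not resolved. PAX8-AS1 went from 0 to 7.66 and 6.43 FPKM and was called in both comparisons (q = 0.0147 in each). PAX8, a transcription factor of kidney and thyroid development, overlaps it and has no entry of its own. PAX8-AS1 was the 1 called gene with the authors' mark for affected DNA methylation, a mark whose making is not described in the sources used here.

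GATA3-AS1 went from 0 in control to 4.36 and 4.08 FPKM in treated and recovery cells and was called in both comparisons (q = 0.0239 and 0.0147 in the authors' deposited table). Its partner GATA3, a zinc finger transcription factor, overlaps it in the RefSeq gene table but has an entry of its own, 1219 bases away, and was at 0.904, 3.91 and 4.36 FPKM without a call (q = 0.92 and 0.90 in the authors' deposited table). Both members of the pair were thus lowest in control. The lncRNA table, which the authors made separately from the same libraries, holds 2 loci over GATA3-AS1, at 0, 95.7 and 54.1 FPKM and at 0, 18.1 and 35.2 FPKM; its FPKM are on a scale of their own. Both loci were listed at 0 in control as well.

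ZNF582-DT and FAM111A-DT are divergent RNAs with head to head neighbours. ZNF582-DT was at 0, 4.49 and 1.52 FPKM and was called in treated cells (q = 0.0147 in the authors' deposited table), while ZNF582, a KRAB zinc finger gene 155 bases away, was at 5.48, 2.61 and 2.44 FPKM. FAM111A-DT was at 0, 2.40 and 3.33 FPKM (q = 0.0392 and 0.0147 in the authors' deposited table), and it overlaps 1 further gene in the RefSeq gene table. FAM111A, a protease gene linked to DNA replication and 36 bases away, was at 8.23, 7.06 and 5.23 FPKM. In both pairs the noncoding RNA was listed at 0 where the messenger RNA had its highest value. The promoter stretches of these genes, shown above, hold 20 and 8 CG dinucleotides.

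The 2 genes that fell were divergent RNAs. ING2-DT (chromosome 4, 184415890 to 184425668, hg19), which is free-standing, went from 20.4 FPKM in control to 0 in treated and 4.403 in recovery cells (q = 0.0147 and 0.910 in the authors' deposited table). ING2, a PHD finger subunit of a histone deacetylase complex whose entry lies 551 bases away, was at 9.51, 13.3 and 7.75 FPKM. ECI2-DT went from 2.14 FPKM to 0 and 0.410 FPKM (q = 0.0239 and 0.939 in the authors' deposited table). It overlaps 3 other genes in the RefSeq gene table, and ECI2, an enzyme of fatty acid oxidation, has no entry of its own.

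**Figure D4:**
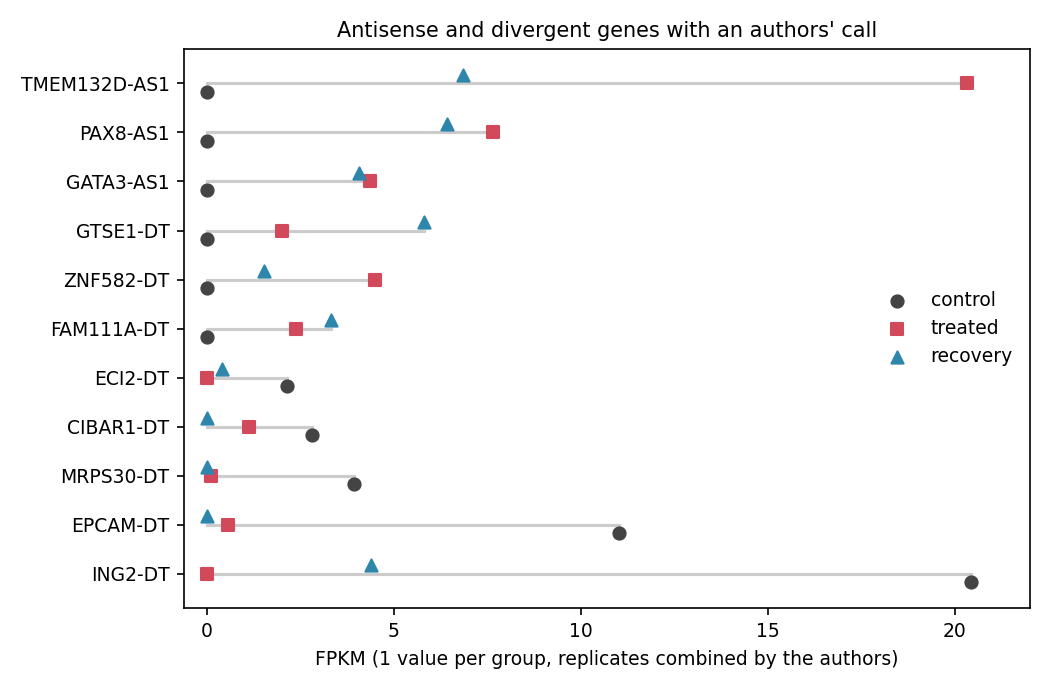
FPKM (horizontal axis) in control, treated and recovery cells, 1 point per group and slightly offset vertically, for 11 of the 12 genes with an authors' call in either comparison. TMEM132D-AS1, PAX8-AS1, GATA3-AS1, GTSE1-DT, ZNF582-DT and FAM111A-DT were listed at 0 in control, and the other 5 had their highest value in control.

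After 30 days without the drug, 8 of 560 genes (1.43%) were called against control, where 0.742% of all entries were called. Higher were 4, against 0.495% of all entries, and lower were 4, against 0.247%. All 8 were again listed at 0 on one side. As recovery was a single library, its spread was not measured. The comparison shares the control libraries with the treated one, so both sets of values are given side by side only. The genes that were higher were PAX8-AS1, GATA3-AS1, FAM111A-DT and GTSE1-DT. GTSE1-DT, free-standing and 80 bases from GTSE1, a gene of the cell cycle, was at 0, 2.02 and 5.82 FPKM (q = 1 and 0.0147 in the authors' deposited table), while GTSE1 was at 12.02, 17.8 and 11.6 FPKM.

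Among the genes that were lower in recovery cells, EPCAM-DT had the highest control value, with 11.0 FPKM in control, 0.582 in treated and 0 in recovery cells (q = 0.939 and 0.0147 in the authors' deposited table). Its entry is 152670 bases long, and EPCAM-DT overlaps 4 other genes in the RefSeq gene table, so the RNA that fell is not resolved. EPCAM, an epithelial adhesion molecule, was at 1.71, 1.75 and 0.561 FPKM. MRPS30-DT, free-standing and divergent from a gene of the mitochondrial ribosome, was at 3.95, 0.124 and 0 FPKM (q = 0.939 and 0.0147). MRPS30 was at 46.7, 52.5 and 41.1 FPKM. CIBAR1-DT was at 2.81, 1.14 and 0 FPKM (q = 0.965 and 0.0392 in the authors' deposited table), and CIBAR1, a gene of ciliary function, at 23.1, 13.2 and 17.1 FPKM. CIBAR1-DT overlaps 3 other genes in the RefSeq gene table. In these 3 the treated value lay between those of control and recovery, at 0.0528 times control in EPCAM-DT, 0.0315 in MRPS30-DT and 0.407 in CIBAR1-DT.

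The lncRNA table gave a second reading of MRPS30-DT. One of its 2 loci there was at 949, 48.0 and 22.2 FPKM on that table's scale, with the same order of groups, and the other was listed at 0 throughout. In all, 53 of the 560 genes matched a locus of the lncRNA table with a reciprocal overlap of at least 90%, 48 of them a single locus. Of these 48, 25 were listed at 0 in control in the RefSeq table and 24 in the lncRNA one, all 24 of them among the 25. For treated cells the counts were 19 and 18, with 18 shared, and for recovery cells 20 and 20, with 20 shared. The zeros of one table were therefore nearly all zeros of the other. The exception in control was DNAJC27-AS1, listed at 0 in the RefSeq table and at 415 FPKM in the lncRNA table. In treated cells it was GAS6-DT, at 0 and 2.47 FPKM.

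Ratios to control could be compared for 20 of the 48 genes with a single locus. Treated over control pointed the same way in both tables in 16 of 20 (Pearson's r = 0.75 and Spearman's rho = 0.68 of the log2 ratios), and recovery over control in 18 of 20 (r = 0.65, rho = 0.68). The 2 tables share their libraries, so these figures describe the counting and not the replication. MOCS2-DT, for example, was 10.6 times control in treated cells in the RefSeq table and 19.1 times in the lncRNA table, and 11.1 and 11.3 times in recovery cells. RNASEH1-DT was 0.348 and 0.374 times control in treated cells, and 0.599 and 0.184 times in recovery cells. Opposite directions occurred too: RNF139-DT was 3.61 times control in treated cells in the RefSeq table and 0.451 times in the lncRNA table, although both gave 0.168 times in recovery cells. MOCS2-DT and RNASEH1-DT were chosen after their values were seen.

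Sizes of change without a call were large in many low genes. At least 2-fold higher than control, with 1 FPKM or more, were 96 genes (17.1%) in treated cells, against 10.8% of all entries, and 90 (16.1%) in recovery cells, against 9.58%. At least 2-fold lower were 77 (13.8%) in treated cells, against 6.96%, and 61 (10.9%) in recovery cells, against 5.98%. Both directions were more frequent than over all entries, and the genes were also lower expressed, with a median of 2.46 FPKM in control among those above 0, against 9.68 FPKM for all entries above 0. The part of low expression in these counts was not tested. The median log2 change of the 284 genes with a mean of at least 0.5 FPKM was 0.04 in treated cells (quartiles -0.81 and 1.07) and 0.00 in recovery cells (quartiles -0.65 and 1.06). The sign of the treated median turned with the setting, to -0.19 with a mean of at least 2 FPKM and to -0.22 after quantile scaling. Over all entries the quartiles were -0.42 and 0.52, and -0.38 and 0.46.

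For 34 of the 193 genes above 0 in all groups, the values stood in ratios of whole numbers with at most 5 for control. The smallest numbers of fragments that give them could be found, and a multiple would give the same values. CCDC144NL-AS1, which overlaps its partner, was at 0.0566, 4.93 and 5.99 FPKM and corresponds to 1, 115 and 69 fragments. ZBED5-AS1, at 0.203, 13.4 and 10.3 FPKM, corresponds to 1, 87 and 33 fragments. Neither was called (q = 0.939 in both comparisons in the authors' deposited table), although FAM111A-DT was called at 2.40 FPKM against a control listed at 0. Of the 6 genes listed at 0 in control and at 5 FPKM or more in treated cells, 4 had no call, among them ST8SIA6-AS1 (15.0 FPKM), CFAP418-AS1 (13.7) and KANSL1-AS1 (6.11). These were chosen after their values were seen.

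ZBED5-AS1 is free-standing and lies 143 bases from ZBED5, a gene derived from a DNA transposon, which was at 27.8, 30.4 and 34.7 FPKM. ZNF143-AS1, 266 bases from the transcription factor gene ZNF143, was at 0.590, 9.37 and 8.43 FPKM (smallest fragment numbers 3, 63 and 28), while ZNF143 was at 11.5, 12.7 and 13.6 FPKM. In both pairs the antisense RNA was at least 10 times as high in treated and recovery cells as in control, and the messenger RNA varied by less than 1.5-fold. The other genes with the largest ratios were RETREG1-AS1 (0.126, 2.28 and 1.35 FPKM), LBX2-AS1 (0.0823, 1.73 and 3.41), TRG-AS1 (0.0558, 1.77 and 1.37), STARD7-AS1 (0.183, 2.75 and 5.41) and SNAI3-AS1 (0.256, 0.503 and 7.83), each of which overlaps its partner.

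At the other end, ZNF566-AS1, free-standing and 65 bases from the zinc finger gene ZNF566, was at 6.10, 0.115 and 0.234 FPKM, and ZNF566 at 4.78, 3.36 and 9.88 FPKM. DICER1-AS1, which overlaps the gene of the microRNA-processing enzyme Dicer in the RefSeq gene table, was at 7.07, 0.931 and 0.471 FPKM, while DICER1 was at 21.6, 31.3 and 17.8 FPKM. WDR35-DT was at 4.49, 0.148 and 0.897 FPKM and WDR35, a ciliary transport gene, at 8.25, 7.24 and 7.82 FPKM. FOXN3-AS1 (6.55, 0.320 and 1.296 FPKM) and SLC7A11-AS1 (1.99, 0.157 and 1.16) were low in treated cells and partly back in recovery cells. TICAM2-AS1 was at 2.28, 0.247 and 14.5 FPKM. P4HA2-AS1 (7.95, 3.94 and 0.598 FPKM), PITRM1-AS1 (4.41, 1.08 and 0.383), MORF4L2-AS1 (3.54, 0.630 and 0.532) and RNF139-DT (2.48, 8.98 and 0.417) had their lowest value in recovery cells. The lowest q among the noncoding genes of this set in either comparison was 0.917 in the authors' deposited table. FOXN3-AS1, SLC7A11-AS1, TICAM2-AS1, P4HA2-AS1, PITRM1-AS1 and MORF4L2-AS1 each overlap a partner that has no entry of its own. Their values may hold fragments of both genes.

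The pairs were then set side by side. The entries of gene and partner were separated by a median of 206 bases over the 238 pairs (143 for the 130 divergent and 581 for the 106 antisense ones). The smallest separation was 0 bases, so no entries of a pair overlapped. Of the 238 partners, 0 were called in either comparison by the authors' Cuffdiff test at q under 0.05, while 4 of the noncoding genes (1.68%) were called in treated and 7 (2.94%) in recovery cells. Of all entries, 0.757% and 0.742% were called. Unadjusted p-values and other tools were not used here. A difference in calls does not show that the changes of a pair differ, which was not tested.

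In 129 pairs both genes had a mean of at least 0.5 FPKM. The noncoding gene had the higher mean in 12 of these, and the median ratio of partner to noncoding gene was 5.28 (quartiles 2.52 and 11.8) on FPKM, a scale per transcript length. The 12 included RAB30-DT, NIPBL-DT, OIP5-AS1, SVIL-AS1, EPCAM-DT, MNX1-AS1 and ZNF667-AS1. The noncoding gene was listed at 0 in 24 of the 129 pairs in control, 4 in treated and 19 in recovery cells, and the partner in 1, 0 and 0.

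Treatment moved gene and partner the same way in 66 of 129 pairs (51.2%, exact 95% binomial interval 42.2% to 60.1%), with 37 both higher and 29 both lower. Recovery against control did so in 71 of 129 (55.0%, interval 46.0% to 63.8%), with 35 both higher and 36 both lower. Only the noncoding gene was higher and the partner lower in 30 treated and 29 recovery pairs. The reverse held in 33 treated and 22 recovery pairs. The remaining recovery pairs had a change of exactly 0 in at least 1 gene and count as not moving the same way, so the 2 shares are not strictly alike. The intervals cover counting error over pairs only. Pearson's r between the log2 changes was 0.05 in treated and 0.17 in recovery cells (Spearman's rho 0.08 and 0.15); the points share their libraries. Among pairs with the starts facing away from each other, 36 of 73 moved the same way in treated and 40 of 73 in recovery cells. The 23 pairs with entries over 1000 bases apart had r = 0.25 in treated and 0.52 in recovery cells (rho 0.18 and 0.52), with 14 of 23 moving the same way in each, while the 106 closer pairs had r = 0.00 and 0.05 (rho 0.03 and 0.06). Whether these sets differ was not tested. The median size of the log2 change, whatever its sign, was 0.86 for the noncoding genes and 0.44 for their partners in treated cells, and 0.83 and 0.38 in recovery cells. The noncoding genes were also lower expressed, with medians of 1.84 and 12.7 FPKM in control, and the part of this difference in the sizes was not tested.

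**Figure D5:**
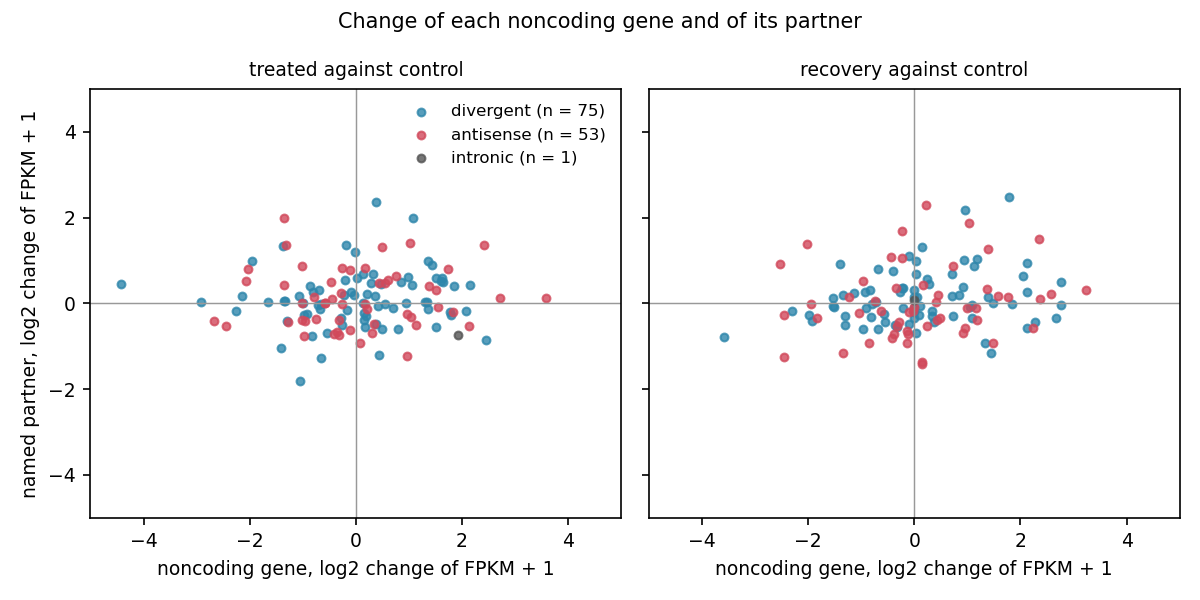
Log2 change of FPKM + 1 of the noncoding gene (horizontal axis) and of its named partner (vertical axis) in treated (left) and recovery (right) against control cells, 1 point per pair, for the 129 pairs with a mean of at least 0.5 FPKM in both. The points spread more along the horizontal axis, with a median size of 0.86 against 0.44 in treated cells; r was 0.05 and 0.17.

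Pairs with a large change in both genes show the range of patterns; those in this paragraph were chosen after their values were seen, and none had a call. RNASEH1-DT had 16.2 FPKM in control, 5.66 in treated and 9.74 in recovery cells, and RNASEH1, a nuclease of RNA-DNA hybrids, at 6.45, 17.95 and 12.02 FPKM, the opposite order. MNX1-AS1 was at 12.5, 4.28 and 14.8 FPKM, and MNX1, a motor neuron homeobox gene, at 1.57, 9.23 and 11.6 FPKM, so that they were apart in treated cells and both high in recovery cells. CEBPA-DT (0.0926, 1.96 and 0.284 FPKM) and CEBPA, a transcription factor gene (11.7, 22.4 and 17.6 FPKM), were both highest in treated cells, as were BAIAP2-DT (1.18, 4.58 and 1.75) and BAIAP2 (7.86, 16.5 and 6.81). GMDS-DT (2.14, 0.505 and 3.07) and GMDS, an enzyme of GDP-fucose synthesis (15.3, 3.66 and 11.0), were both lowest there. ZNF674-AS1 (2.57, 4.25 and 8.31) and ZNF674 (1.05, 1.84 and 3.96) were both highest in recovery cells.

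A list of 28 well-studied antisense and divergent RNAs held 19 of the 560 genes. Of these, 5 were listed at 0 in all groups: HAND2-AS1, DSCAM-AS1, MAPT-AS1, PSMB8-AS1 and NKX2-1-AS1. Called in treated cells were 3 (GATA3-AS1, TMEM132D-AS1 and ING2-DT) and in recovery cells 2 (GATA3-AS1 and EPCAM-DT); the list was made with earlier results of these data known, so this count supports nothing. ZEB1-AS1 overlaps the transcription factor gene ZEB1 in the RefSeq gene table, but their entries lie 76 bases apart. ZEB1-AS1 was at 16.9, 7.87 and 6.63 FPKM, and ZEB1 at 17.6, 17.5 and 19.6 FPKM. WT1-AS, at the start of the kidney transcription factor gene WT1, was at 2.25, 1.18 and 1.99 FPKM and carried the authors' methylation mark, and WT1 was at 4.82, 4.86 and 2.55 FPKM. CDKN2B-AS1, also known as ANRIL, was at 2.04, 2.78 and 1.298 FPKM, MCM3AP-AS1 at 5.48, 3.07 and 1.21 FPKM and PAXIP1-DT at 10.0, 3.11 and 7.54 FPKM. BDNF-AS (0, 3.70 and 0.774 FPKM), LEF1-AS1 (0, 1.33 and 0) and AFAP1-AS1 (0.0281, 1.46 and 0) had their highest value in treated cells. None of the genes from ZEB1-AS1 onward in this paragraph was called. CDKN2B-AS1, MCM3AP-AS1, BDNF-AS, LEF1-AS1 and AFAP1-AS1 each overlap a partner that has no entry of its own. Their values may hold fragments of both genes.

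The machinery that removes or ends such RNAs was read from fixed lists. Over all entries, 0.757% were called in treated and 0.742% in recovery cells. Counts of 0 in lists this short therefore do not show that the machinery was unchanged. Of 21 genes of the exosome and its adaptors, 0 were called in either comparison by the authors' test. Their lowest q in the authors' deposited table was 0.727, for EXOSC8 in treated cells. Their median log2 change was 0.10 in treated and 0.14 in recovery cells. EXOSC8, an exosome ring subunit, was at 49.9, 13.9 and 25.3 FPKM, EXOSC10, its nuclear nuclease, at 46.2, 25.5 and 43.8 FPKM and EXOSC3, a cap subunit, at 13.4, 15.3 and 19.6 FPKM. Of 16 genes of early termination, cleavage and the Integrator complex, 0 were called, with medians of -0.13 and 0.06. CSTF2, a cleavage factor, had the lowest q of this list (0.177 and 0.339), at 11.3, 41.3 and 34.7 FPKM. DNMT1, DNMT3A, DNMT3B and UHRF1 had no call (lowest q 0.898).

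The authors' methylation mark stood on 102 of the 560 genes (18.2%), against 14.1% of all entries and 17.0% of the other noncoding ones. It stood on 21.3% of antisense and 9.33% of divergent genes. Promoter windows of marked genes had a median of 7 CG dinucleotides (80 windows) and those of unmarked ones 24 (347 windows). Since how the mark was made is not given in the sources used here, it is reported as a label. The authors' other mark, for high expression, stood on 52 of 408 antisense genes (12.7%) and on 4 of 150 divergent ones (2.67%), and on 2 of 134 free-standing genes. It stood on 12.8% of all entries and 2.25% of the other noncoding ones. Of the 56 marked genes, 9 were listed at 0 in all groups, PSMB8-AS1 among them.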

How the data were processed

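The series holds 5 RNA sequencing libraries of HEK 293T; groups were taken from the sample titles. The authors deposited 1 FPKM value per gene and group, with replicates combined, and 1 q-value (adjusted p-value) per comparison with control, per the file headers; other columns hold text. The submitters' processing notes name Cufflinks and Cuffdiff, without versions, and 2 builds, hg19 and mm9; file coordinates are taken as hg19 and printed 1-based. For aligner, annotation release and strand setting nothing is given in the sources used here. Damaged numbers led to leaving out 1 RefSeq entry and 2 lncRNA entries (21627 listed). The number of value columns without a group was 0.

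Identifiers were matched to symbols with the RefSeq gene table (GRCh38.p14; 19665 of 20220 matched), which also gave overlaps. The partner is the symbol without its suffix. Calls are the authors' q under 0.05, adjusted over the whole table, with the direction from FPKM; the authors' yes or no calls differed from this in 0 cases. Log2 changes use FPKM + 1, which understates changes of low genes, and medians use a mean of at least 0.5 FPKM. Fragment numbers were searched with up to 5 control fragments and a tolerance of 0.02. The scripts were tested on simulated data. pandas 2.3.3 and scipy 1.17.1 were used. Genes named are all called ones, the 12 highest by mean, the 6 largest and 6 smallest ratios per comparison among genes above 0 in all groups with a mean of at least 1 FPKM, a list of well-studied RNAs, and their partners. Some genes that this rule takes are not reported here, although they remain in the counts. Members and lists were chosen with earlier results of these data known. The labels tie no library to a culture, so the q-values may reflect technical spread only. Total fragments are not known, so no counting interval is given for FPKM.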

Additional observations from a re-analysis of the deposited data

How the results depend on the processing

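No paired analysis was possible because the deposited columns hold 1 value per group, and leaving out single libraries could not be run for the same reason. With q under 0.10 the counts were 6 higher and 2 lower in treated cells and 4 higher and 5 lower in recovery cells, within 1.5 times the reported counts. Restricted to genes above 0 on both sides, they were 0 in either direction and comparison (the authors' Cuffdiff test). Restricted to genes that overlap no other gene, they were 1 higher and 1 lower in treated cells, and 1 higher and 1 lower in recovery cells, of 134 such genes. Counting a ratio of at least 2 with 1 FPKM or more gave 96 higher and 77 lower in treated cells and 90 higher and 61 lower in recovery cells.

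The median log2 change in treated cells was -0.19 with a mean of at least 2 FPKM and -0.22 after quantile scaling, against 0.04 as reported, so its sign depends on these choices; the cause was not tested. The other alternatives for the medians (pseudocount of 0.1, no filter, median-ratio scaling, genes without overlap, and all of them in recovery cells) moved it by less than 0.1. The share of pairs moving the same way was 34.5% in treated and 37.0% in recovery cells without a filter, where pairs with a gene at 0 on both sides count as not moving, and 61.5% of 39 and 65.6% of 32 pairs where both genes changed by at least 1.5-fold. With a mean of at least 2 FPKM, median-ratio scaling or only entries that do not overlap, it stayed inside the printed intervals. Shares listed at 0 moved by less than 1.5 times when counted under 0.1 FPKM or in the lncRNA table. Low values limit most of these results: 284 of the 560 genes reached a mean of 0.5 FPKM.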
